A study of Homo sapiens with 10 samples.

Results

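Interferon-stimulated genes were followed in U266 cells in which transcription of EFNB2, the gene of the membrane ligand ephrin-B2, had been raised from its own promoter. The members were 50 named genes found by symbol among the 60574 named genes of the count table, and each of the 50 was found. The rule takes them by name, as genes known to be induced by interferon. U266 is an established line grown from a human multiple myeloma, a tumour of plasma cells. Every cell population compared here carried a lentiviral dCas9-VPR, a Cas9 protein that cannot cut DNA and is joined to transcriptional activators, and had been selected and kept in puromycin and blasticidin. The 5 libraries of the EFNB2 guide (A to E) came from cells whose guide RNA points at the EFNB2 start site, and the 5 control libraries (A to E) from cells whose scrambled guide has no target. A single EFNB2 guide was used, the labels list no treatment such as interferon, and they name no clone.

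Cells make interferon-stimulated genes when type I or type II interferon binds its receptor and kinases activate STAT proteins. These kinases are JAK1 and TYK2 for type I and JAK1 and JAK2 for type II interferon. STAT2 and IRF9 take part in the ISGF3 complex, which binds the interferon-stimulated response element (ISRE), while STAT dimers bind the gamma-activated site (GAS). The products sense viral RNA and DNA, degrade RNA, block entry or assembly of viruses, attach the ubiquitin-like protein ISG15 to other proteins, and feed back on the receptor. Many tumour lines keep part of this programme on without added interferon.

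The table held between 47268072 and 56513548 counts per library, so that 3 counts, the limit that a count of 0 allows in a single library, equalled 0.0537 to 0.0627 CPM (read counts scaled by the TMM-adjusted library size). EFNB2 itself lay at 1.21 ± 0.198 CPM (SD, n = 5) with its guide and at 0.119 ± 0.0509 CPM (SD, n = 5) in the controls, with no overlap between the groups. Of 10 plasma cell markers all 10 were expressed (JCHAIN at 2042 and 1899.6 CPM, SDC1 at 2121 and 3015 CPM, with the EFNB2 and the control guide). Of these markers 4 rose and 4 fell (40% each), and CD38 rose from 1.78 to 8.03 CPM. Of all tested genes 22.8% rose and 22.6% fell, which is the share to set beside each count of markers here. In contrast, the T cell genes CD3D and CD3G and the myeloid genes LYZ, CSF1R, FCGR3A and CD68 had at most 13 counts over the 5 libraries of a guide. Other genes of those lists were detected, such as TRAC at 8.95 and 5.90 CPM and ITGAM at 2.37 and 2.17 CPM. The fibroblast gene COL1A1 (24.6 and 17.4 CPM) and the natural killer cell genes NCAM1 (24.4 and 19.3 CPM) and GNLY (0.402 and 0.0263 CPM) were higher with the EFNB2 guide. GNLY lay under the filter on low counts (0.191 CPM) in the controls, so only the EFNB2 libraries could bring it into the test. Of 3 tested natural killer cell genes 2 rose and 1 fell, and of 4 tested T cell genes 1 rose and 1 fell. Of 2 tested myeloid genes 1 rose, and for both the libraries of the 2 guides overlapped. The part of these genes in the results was not tested. In RNA of whole populations, fewer cells that express a gene and less RNA of it per cell cannot be told apart. Nothing in the labels ties the libraries to separate cultures, so the p-values measure the spread between these libraries, which may be technical. For many genes library A of both guides stood off from B to E, and calls of members that change without both A libraries are given with their values.

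Of the 50 genes, 40 passed edgeR's filter on low counts (filterByExpr) and were tested, and 10 were not. With the EFNB2 guide 18 members rose and 6 fell at an adjusted p under 0.05 in edgeR's quasi-likelihood test with Benjamini-Hochberg adjustment over 17834 genes, and 16 did not pass. That is 45% of tested members higher and 15% lower, where 22.8% of all tested genes were higher and 22.6% lower, and 60% in either direction against 45.4%. For 19 of the 40 (47.5%) the 5 libraries of one guide were all above the 5 of the other, against 30.3% of all tested genes, with 14 of them higher and 5 lower. The median log2 fold change was 0.21 for the tested members and 0.01 for all tested genes. These shares cover only members that passed the filter, and 3 of them (IFI44, TRIM22 and LGALS3BP) passed through the libraries of the EFNB2 guide alone, where they were higher. Members moved in both directions: 7 rose at least 2-fold (IFI44, PARP9, XAF1, TRIM22, USP18, DTX3L and LGALS3BP, of which IFI44, TRIM22 and LGALS3BP are the 3 just named) and none of the 6 falls reached 2-fold. Of all tested genes 2.92% passed with a rise of at least 2-fold and 1.12% with a fall of that size. Without both A libraries 23 of the 40 members rose and 8 fell, where 28% of all tested genes rose and 27.2% fell. No called member lost its call then, and IRF9, DHX58, IFIT1, BST2, IFI6 (higher), IRF1 and IFIH1 (lower) gained one.

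**Figure D1:**
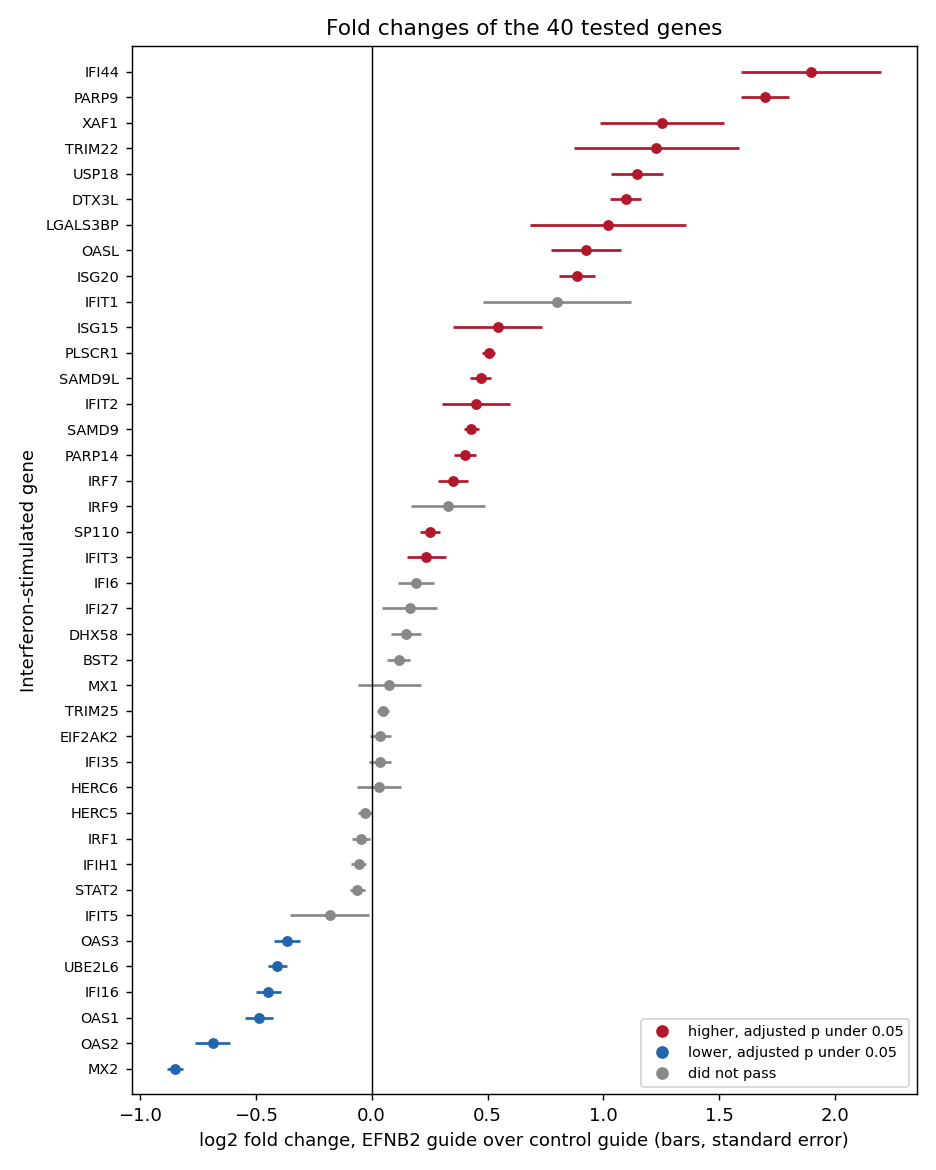
Log2 fold change (x axis, EFNB2 guide over control guide, bars are standard errors) of the 40 tested interferon-stimulated genes (y axis, one per line). Red points were higher and blue points lower at an adjusted p under 0.05, and grey points did not pass: 18 lie in red, 6 in blue and 16 in grey, from IFI44 at 1.89 to MX2 at -0.85.

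Levels per length, as CPM per kb of merged exons, put 4 of the 6 falling genes among the 5 strongest of the list. In the control libraries the order was BST2 (163 CPM per kb), OAS3 (128), OAS1 (123), OAS2 (70.6) and UBE2L6 (56.3), and the next were IFI6 (26.4), IFI35 (25.8) and STAT2 (20.5). Of these 8, OAS3, OAS1, OAS2 and UBE2L6 fell and the others did not pass the test. Among the 23 members with at least 2 CPM per kb in the controls, 6 rose and 6 fell, 26.1% each, near the 22.8% and 22.6% of all tested genes. Among the 27 members under 2 CPM per kb, 12 rose, the other 5 that were tested did not pass, and 10 were not tested. The limit of 2 CPM per kb was set after the values were seen, and a weak member could enter the test through a rise alone.

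The stretches upstream of the start sites are shown for the members that the comparison turns on and that the RefSeq promoter table holds (GRCh38.p14, 250 bases before to 50 after each start). The ISRE was searched as GAAANNGAAA on both strands (TTTCNNTTTC on the other) and the GAS as TTCNNNGAA, which reads the same on both strands. PARP9, a mono-ADP-ribosyltransferase family member, and DTX3L, the ubiquitin ligase that binds it, are read in opposite directions. A PARP9 start at chr3:122564300 (minus strand) lies 38 bases from the DTX3L start at chr3:122564338 (plus strand). A single ISRE at chr3:122564332-122564341 lies in the windows of both these starts, from 41 to 32 bases before that PARP9 start and over the DTX3L start. PARP9 has 2 windows, and the other holds no match to the ISRE. The gene of PARP9 reaches to chr3:122564784, past the DTX3L start. It is in capitals in the stretches of the 2 genes (DTX3L, chr3:122564282-122564341, plus strand, and PARP9, chr3:122564312-122564361, minus strand), each written in the direction of its gene. PARP14, a further ADP-ribosyltransferase of the same locus, is shown from chr3:122680760-122680838, plus strand, which ends at the base before its start. Capitals mark the ISRE alone, and the PARP14 stretch also holds a GAS in lower case, at chr3:122680799-122680807.
DTX3L: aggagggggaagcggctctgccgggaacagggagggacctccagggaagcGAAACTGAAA
PARP9: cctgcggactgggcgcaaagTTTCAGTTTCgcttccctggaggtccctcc
PARP14: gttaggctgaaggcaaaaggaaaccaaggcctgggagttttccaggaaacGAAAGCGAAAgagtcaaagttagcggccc

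Other members that rose are shown for comparison with the falling oligoadenylate synthetases, again with the motif in capitals. They are IFI44 (chr1:78649721-78649788, plus strand), ISG20 (chr15:88638897-88638976, plus strand), SAMD9 (chr7:93118086-93118165, minus strand) and PLSCR1 (chr3:146544657-146544736, minus strand), each with an ISRE.
IFI44: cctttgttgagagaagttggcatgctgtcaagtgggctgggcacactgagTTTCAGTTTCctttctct
ISG20: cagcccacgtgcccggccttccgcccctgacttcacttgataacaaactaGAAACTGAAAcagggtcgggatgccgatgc
SAMD9: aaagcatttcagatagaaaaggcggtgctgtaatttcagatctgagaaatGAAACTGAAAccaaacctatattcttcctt
PLSCR1: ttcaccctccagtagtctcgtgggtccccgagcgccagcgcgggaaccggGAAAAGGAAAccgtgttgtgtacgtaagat

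OAS3, which fell, holds 2 ISREs, at chr12:112938331-112938340 and chr12:112938462-112938471. They are shown in the stretches chr12:112938301-112938360 (distal) and chr12:112938412-112938473 (proximal, ending at the base before the start), plus strand. OAS1, which also fell, holds no match to the searched ISRE letters in its window. It holds 1 GAS, at chr12:112906794-112906802, shown in chr12:112906744-112906822, plus strand. The 10 letters of the shared PARP9 and DTX3L element, read in the direction of DTX3L, also stand in ISG20, SAMD9 and the distal OAS3 site, in BST2 (at 2 overlapping sites), which did not pass the test, and in IFITM1, which was not tested. In the other orientation they stand in IFI44 and IFIT3, which rose, in IFIT5, which did not pass, and in GBP1 and RSAD2, which were not tested.
OAS3 distal: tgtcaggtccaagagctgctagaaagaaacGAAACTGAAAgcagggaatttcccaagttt
OAS3 proximal: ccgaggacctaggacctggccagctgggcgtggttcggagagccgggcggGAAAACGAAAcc
OAS1: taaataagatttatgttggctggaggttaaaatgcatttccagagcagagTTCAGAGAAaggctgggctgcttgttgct

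In all, 40 of the 50 members have a window in the table, some of them several. An ISRE stands in 32 of their 54 windows (59.3%), against 3.57% of all 35116 windows in the table, and the GAS letters stand in 14 of the 54 (25.9%), against 7.66%. Counted by gene, 27 of the 40 members hold an ISRE in any of their windows and 12 hold a GAS, where 4.38% and 9.38% of the 27305 genes in the table do. By call, an ISRE stands in the windows of 10 of 13 members that rose, 1 of 4 that fell (OAS3), 9 of 15 that did not pass and 7 of 8 that were not tested. The GAS letters stand in 3 of 13, 1 of 4, 6 of 15 and 2 of 8. ISREs overlap each other in 4 members (BST2, HERC5, IFIH1 and ISG15), and an ISRE overlaps a GAS in 5 (BST2, EPSTI1, IFI27, IFITM1 and MX1). IRF7, USP18, DHX58, OAS2, OASL, IFIT2, MX2, GBP2, IFITM2 and TRIM22 have no window in the table. A match of letters describes the window and is no evidence of binding. A window without a match is not shown to lack an ISRE, since other spacings of the letters were not searched.

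PARP9 and DTX3L rose together. The level of PARP9 was 8.43, 10.3, 11.5, 11.7 and 12.3 CPM in EFNB2 libraries A to E and 3.02, 2.81, 3.49, 3.64 and 3.72 CPM in control libraries A to E. The lowest EFNB2 library, A, was still above the highest control. The mean went from 3.34 ± 0.397 to 10.8 ± 1.53 CPM (SD, n = 5 each), 3.24-fold higher (log2 fold change 1.70, SE 0.11, edgeR adjusted p = 4.89e-09). DTX3L stood at 22.4, 22.7, 25.1, 24.3 and 25.2 CPM with the EFNB2 guide and at 9.22, 11.8, 10.8, 12.1 and 12.1 CPM in the controls. Its groups did not overlap either, and its mean rose 2.14-fold, from 11.2 ± 1.24 to 24.0 ± 1.32 CPM (SD, n = 5 each, with a log2 fold change of 1.10, SE 0.07, edgeR adjusted p = 3.87e-09). PARP14 went from 28.4 ± 1.04 to 37.6 ± 2.75 CPM (SD, n = 5 each), a smaller rise of 0.40 on the log2 scale (SE 0.05, edgeR adjusted p = 4.67e-06), again without overlap. Exons of PARP9 and DTX3L share 217 bases on opposite strands, and no source used here gives the strand setting of the counting, so that reads of the more strongly counted DTX3L could be credited to PARP9.

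The 3 genes lie together on chromosome 3 (GRCh38, chr3:122527924-122730840), and their tested neighbours did not share the rise. Of the 3 tested genes on each side, 1 fell, FAM162A at -0.14 (SE 0.05, edgeR adjusted p = 0.0434), and the other 5 did not pass. The directly adjoining genes were KPNA1, at 0.03 (SE 0.02), and HSPBAP1, at -0.02 (SE 0.06).

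USP18, the protease that removes ISG15 from proteins and also blocks signalling at the interferon receptor, rose beside them. It lay at 6.23, 6.86, 8.90, 8.16 and 9.82 CPM with the EFNB2 guide and at 3.25, 3.78, 3.64, 3.91 and 3.46 CPM in the controls, again A lowest and E highest among the EFNB2 libraries and no overlap. The mean rose 2.21-fold, from 3.61 ± 0.260 to 7.99 ± 1.47 CPM (SD, n = 5 each, with a log2 fold change of 1.14, SE 0.11, edgeR adjusted p = 8.27e-07). Its near copy USP41 had 4 counts with the EFNB2 guide and 9 in the controls, against 2988 counts of USP18 in the 10 libraries.

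ISG15 conjugation as a whole was split. The modifier ISG15 had 1.80, 1.60, 2.70, 1.58 and 3.10 CPM with the EFNB2 guide and 1.19, 1.63, 1.65, 1.63 and 1.28 CPM in the controls. EFNB2 libraries C and E were high, while B and D lay within the control range. The rise of 0.54 (log2, SE 0.19) passed in edgeR (adjusted p = 0.0296), and without EFNB2 library E it was 0.38 and did not pass (adjusted p = 0.0935). UBE2L6, the enzyme that carries ISG15 to its ligases, fell from 124 ± 8.34 to 93.3 ± 2.84 CPM (SD, n = 5 each, with a log2 fold change of -0.41, SE 0.04, edgeR adjusted p = 1.09e-06). Its libraries did not overlap, but control A, at 109 CPM, lay below the other controls (124 to 129 CPM). The ligase HERC5 differed by -0.03 (SE 0.03), HERC6, a close relative of it, by 0.03 (SE 0.10) and TRIM25, a ligase of ubiquitin and ISG15, by 0.05 (SE 0.03), and these 3 did not pass.

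The largest fall was that of MX2, a dynamin-like GTPase that restricts viruses at the nuclear pore. MX2 lay at 28.9, 27.6, 28.6, 27.6 and 27.5 CPM with the EFNB2 guide and at 48.9, 53.8, 50.3, 48.7 and 50.5 CPM in the controls. Both groups were tight and far apart, the A libraries included. The mean was 1.80-fold lower with the EFNB2 guide (28.0 ± 0.684 against 50.4 ± 2.04 CPM, SD, n = 5 each, with a log2 fold change of -0.85, SE 0.03, edgeR adjusted p = 3.05e-11). Its neighbour MX1, the cytoplasmic relative, behaved differently from library to library: 30.3, 30.5, 47.5, 36.2 and 57.0 CPM with the EFNB2 guide, but only 36.0 to 39.8 CPM over the controls. EFNB2 libraries A and B lay below every control and C and E above every control. The mean difference of MX1 was 0.08 (log2, SE 0.14, edgeR adjusted p = 0.685), and it turned to -0.08 without EFNB2 library E. On chromosome 21 the tested gene before MX2 is BACE2, a protease gene, which rose from 0.0490 to 1.02 CPM (log2 fold change 4.33, SE 0.38). Its control level lay under the 0.191 CPM of the filter, so it passed only through the EFNB2 libraries, where it was higher.

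**Figure D2:**
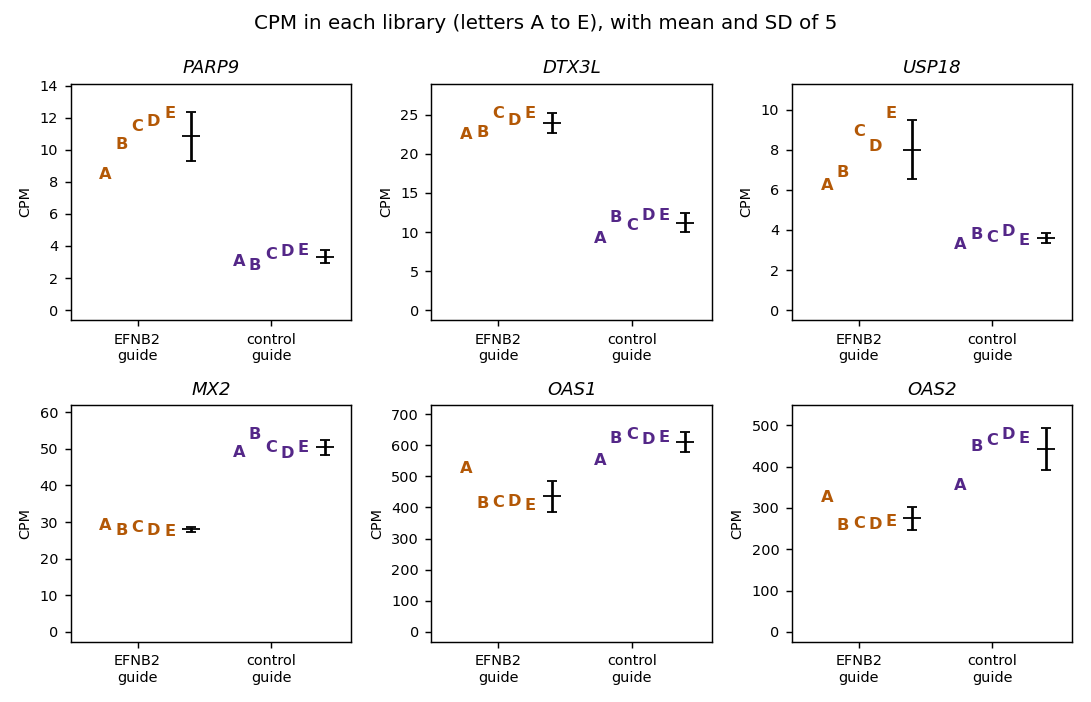
CPM (y axis, from 0) of 3 members that rose (PARP9, DTX3L and USP18, upper panels) and 3 that fell (MX2, OAS1 and OAS2, lower panels) in each library, drawn as its letter, for the EFNB2 guide and the control guide, with mean and SD of 5 as black bars. The groups do not overlap in any of the 6 panels, and the letters A of OAS1 and OAS2 lie nearer each other than B to E do.

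The oligoadenylate synthetases make a messenger that sets off the decay of RNA, and OAS1, OAS2 and OAS3 fell together. OAS1 stood at 525, 414, 415, 420 and 407 CPM with the EFNB2 guide and at 551, 623, 633, 619 and 626 CPM in the controls. EFNB2 A was the highest of its group and control A the lowest of its group. The mean of OAS1 was 1.40-fold lower (436 ± 49.8 against 610 ± 33.4 CPM, SD, n = 5 each, with a log2 fold change of -0.48, SE 0.06, edgeR adjusted p = 1.09e-05). OAS2 lay at 324, 258, 263, 261 and 267 CPM against 354, 447, 463, 476 and 469 CPM, with the same placing of the A libraries and no overlap. It fell 1.61-fold in the mean (log2 fold change -0.69, SE 0.08, edgeR adjusted p = 2.67e-06). OAS3, at 951, 780, 797, 784 and 785 CPM against 932, 1076, 1074, 1081 and 1110 CPM, overlapped between the groups because EFNB2 A was above control A, and its log2 fold change was -0.36 (SE 0.06, edgeR adjusted p = 7.51e-05).

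Compared letter by letter, the A libraries carried little of the fall. The log2 difference of OAS1 was -0.07 in A and -0.62 to -0.56 in B to E, that of OAS2 was -0.13 in A and -0.87 to -0.79 in B to E, and that of OAS3 was 0.03 in A and -0.50 to -0.43 in B to E. The letters are labels of libraries, nothing in the labels says that they pair them, and the main test did not. Without both A libraries the log2 fold changes were -0.59 for OAS1, -0.82 for OAS2, -0.46 for OAS3, -0.54 for IFI16, -0.46 for UBE2L6 and -0.87 for MX2. IFI16, a sensor of DNA in the nucleus and cytosol, had the same shape, with -0.06 in A and -0.58 to -0.51 in B to E, and fell from 85.1 ± 7.0 to 62.5 ± 4.22 CPM (SD, n = 5 each, with a log2 fold change of -0.44, SE 0.06, edgeR adjusted p = 9.60e-06). UBE2L6 differed by -0.17 in A and by -0.53 to -0.43 in B to E. MX2, by contrast, differed by -0.76 in A and by -0.96 to -0.81 in B to E. What sets the A libraries apart was not tested.

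The 3 genes OAS1, OAS3 and OAS2 lie side by side on chromosome 12 (GRCh38, chr12:112906962-113011723). Of the 3 tested genes on each side 1 fell, the ribosomal protein gene RPL6 (-0.20, SE 0.02, edgeR adjusted p = 2.63e-06), which is the farthest on its side, and the other 5 did not pass. The nearest, RPH3A (0.10, SE 0.34) and DTX1 (0.27, SE 0.23), were weakly expressed. OASL, the family member elsewhere on chromosome 12 that lacks the synthetase activity, went the other way. It had 2.87, 3.23, 3.07, 2.52 and 3.72 CPM with the EFNB2 guide against 1.49, 1.07, 1.68, 2.15 and 1.70 CPM, without overlap (log2 fold change 0.93, SE 0.15, edgeR adjusted p = 0.000138).

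**Figure D3:**
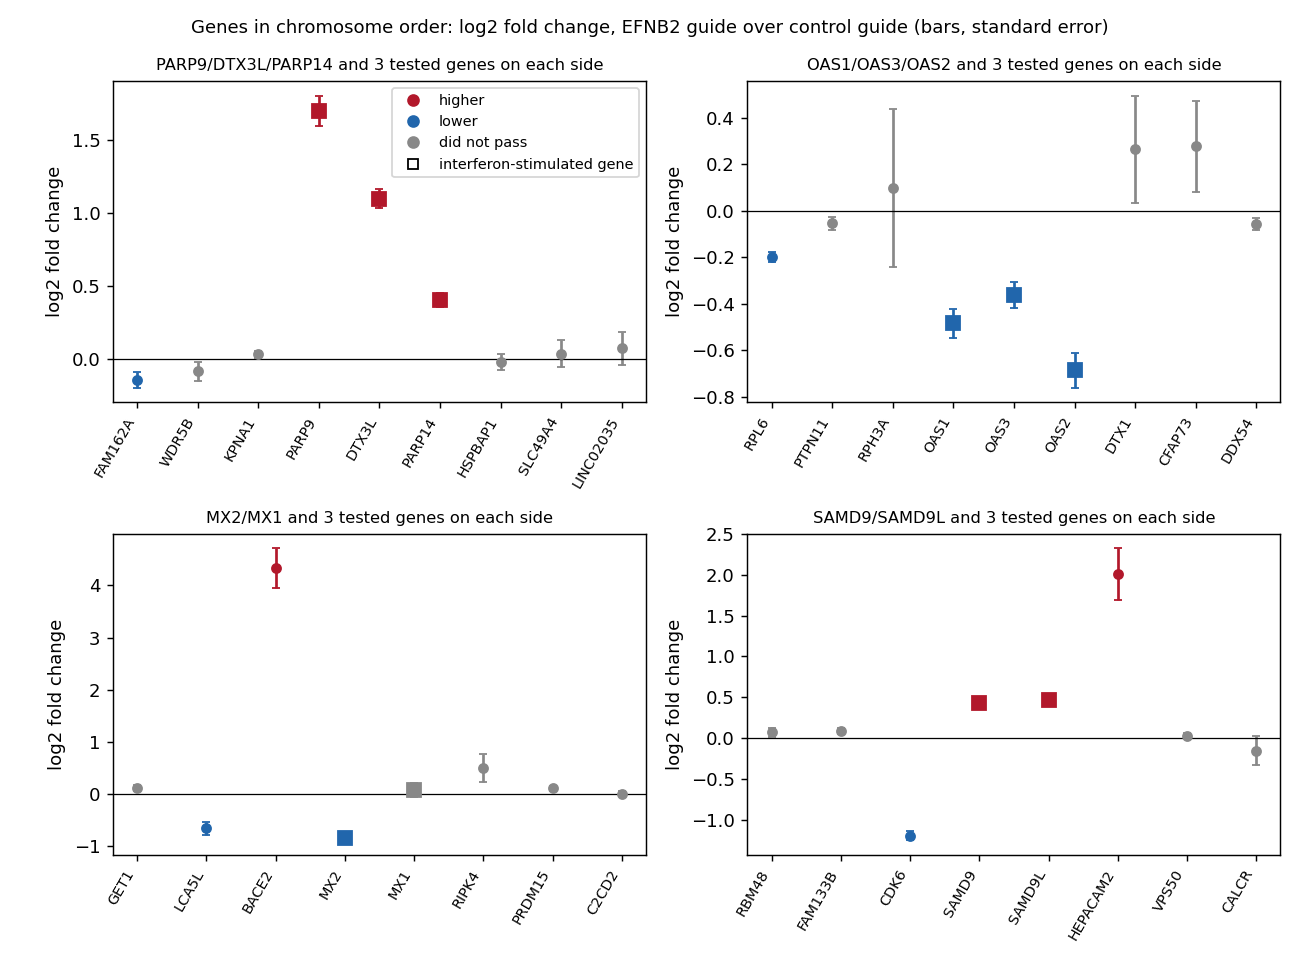
Log2 fold change (y axis, EFNB2 guide over control guide, bars are standard errors) of genes in chromosome order (x axis, not to scale) at 4 loci, with members as squares and the 3 nearest tested genes on each side as circles. Red is higher, blue lower and grey did not pass: PARP9, DTX3L and PARP14 are higher and OAS1, OAS3 and OAS2 lower between neighbours that are mostly grey, while MX2 and MX1 differ.

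Placed against each other in each library, the rising and the falling members gave a clear order. The mean log2 CPM of PARP9, DTX3L and USP18 less that of MX2, OAS1 and OAS2 was -4.00, -3.61, -3.41, -3.44 and -3.31 in EFNB2 libraries A to E and -5.55, -5.61, -5.56, -5.44 and -5.50 in the controls. EFNB2 A was the lowest of its group and remained well above every control. These 6 genes were named for their direction, so the gap between the groups is a description and carries no test. The zero of this measure has no meaning of its own, since the levels are not per length.

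The IFIT proteins act together in binding viral RNA that lacks a self mark. IFIT3 lay at 15.9, 17.3, 18.0, 18.8 and 23.4 CPM with the EFNB2 guide and at 16.4, 15.6, 17.3, 15.6 and 14.4 CPM in the controls, so that E was high and A lay inside the control range. It rose by 0.24 (log2, SE 0.08, edgeR adjusted p = 0.0312), and without EFNB2 library E by 0.15 without passing (adjusted p = 0.0675). IFIT2 went from 1.44 ± 0.127 to 1.97 ± 0.439 CPM (SD, n = 5 each, with a log2 fold change of 0.45, SE 0.15, edgeR adjusted p = 0.0209), and also did not pass without EFNB2 library E (0.34, adjusted p = 0.0647). Exons of IFIT2 share 65 bases with LIPA on the opposite strand, a gene with far more counts. IFIT1 had 0.826, 0.734, 1.05, 0.943 and 2.51 CPM against 1.02, 0.679, 0.627, 0.477 and 0.674 CPM. Its difference of 0.80 (SE 0.32) missed the threshold (edgeR adjusted p = 0.0521) and was 0.35 without EFNB2 library E. Without both A libraries it was 1.09 and passed (edgeR adjusted p = 0.00331), as it did in 6 of 18 alternatives. IFIT5 differed by -0.18 (SE 0.17) and did not pass.

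EFNB2 library E was high across much of the list. It held the highest value of the EFNB2 libraries for 20 of the 40 tested members, where over all tested genes E was the highest for 17.7%. EFNB2 A held the lowest value for 19 of the 40, against 29.9% of all tested genes. Among the control libraries E was the highest for 11 of the 40 members, against 14.8% of all tested genes. XAF1, an apoptosis-promoting zinc finger protein, showed the order plainly, with 0.716, 0.947, 1.34, 0.922 and 2.04 CPM for the EFNB2 guide and 0.643, 0.485, 0.412, 0.386 and 0.565 CPM for the control guide. Its log2 fold change was 1.25 (SE 0.27, edgeR adjusted p = 0.00135) with all libraries and 0.97 (adjusted p = 0.00246) without EFNB2 library E. TRIM22, an antiviral ubiquitin ligase, had 0.202, 0.271, 0.314, 0.205 and 0.593 CPM against 0.189, 0.155, 0.0896, 0.147 and 0.0911 CPM. The rise of TRIM22 was 1.23 (SE 0.36, edgeR adjusted p = 0.0108), and 0.88 (adjusted p = 0.0337) without EFNB2 library E. Why library E was high was not tested.

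**Figure D4:**
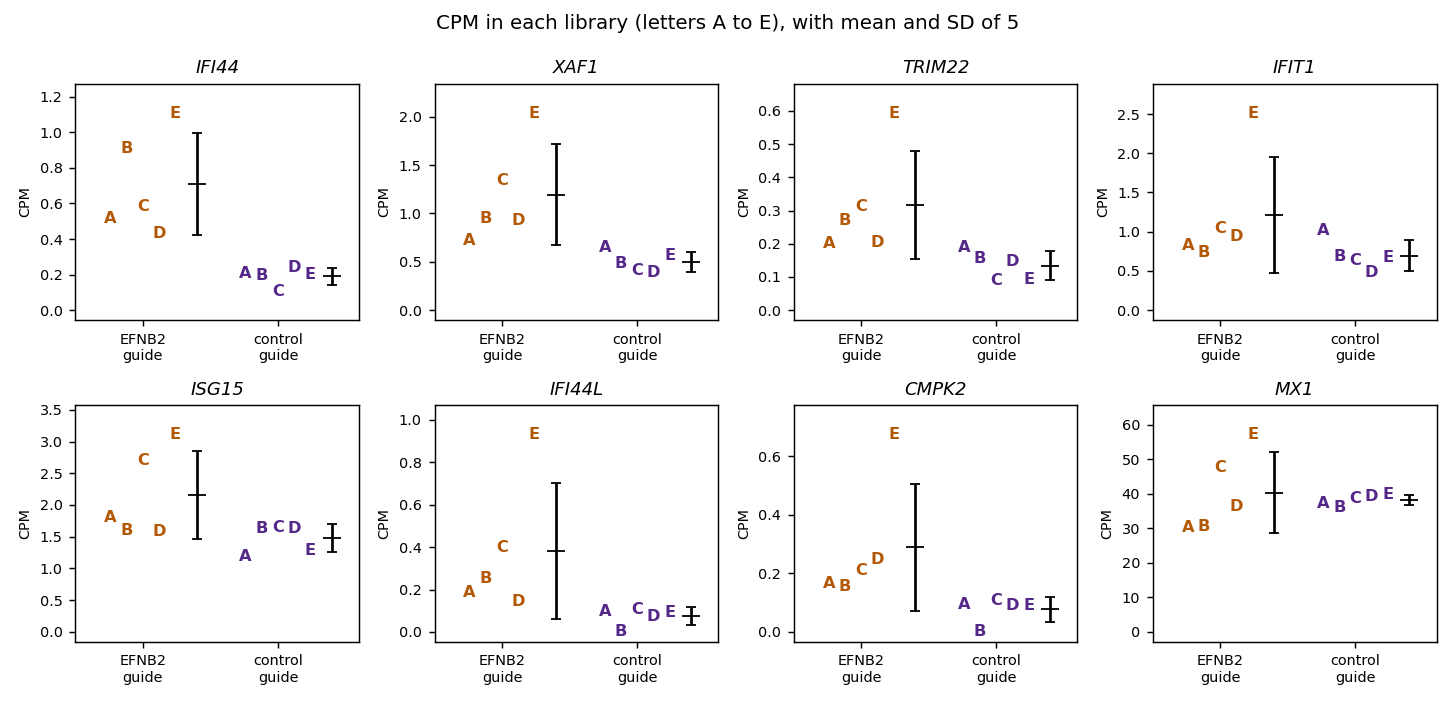
CPM (y axis, from 0) of 8 members in each library, drawn as its letter, for the EFNB2 guide and the control guide, with mean and SD of 5 as black bars. The 8 are a selection of members for which E is the highest of the EFNB2 libraries, as it was for 20 of the 40 tested members. For MX1 it lies at 57.0 CPM against 30.3 to 47.5 CPM in the other 4.

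IFI44 had the largest fold change of the tested members from few counts, 231 in all 10 libraries. It lay at 0.514, 0.908, 0.585, 0.430 and 1.11 CPM with the EFNB2 guide and at 0.208, 0.194, 0.107, 0.239 and 0.200 CPM in the controls. The groups did not overlap, and the log2 fold change was 1.89 (SE 0.30, edgeR adjusted p = 0.00011). LGALS3BP, a secreted galectin-binding glycoprotein, was as weak (0.365 ± 0.112 against 0.179 ± 0.0968 CPM, SD, n = 5 each), and its groups overlapped. It rose by 1.02 (log2, SE 0.34, edgeR adjusted p = 0.0212), a call that was lost when any of 4 libraries (EFNB2 B or D, control C or E) was left out, with adjusted p-values up to 0.0619.

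PLSCR1, SAMD9 and SAMD9L rose by similar amounts on the log2 scale. PLSCR1, a scramblase family protein that hinders virus entry, had 81.6, 78.5, 78.2, 78.0 and 78.8 CPM with the EFNB2 guide and 51.9, 56.8, 56.4, 57.5 and 55.8 CPM in the controls, 1.42-fold higher (log2 fold change 0.50, SE 0.03, edgeR adjusted p = 2.82e-09). The neighbours SAMD9 and SAMD9L, which halt translation in infected cells, rose by 0.43 (SE 0.03, edgeR adjusted p = 6.78e-08) and by 0.47 (SE 0.05, edgeR adjusted p = 6.33e-07) from 58.9 and 92.4 CPM. Of the genes beside this pair on chromosome 7, CDK6 fell by 1.20 on the log2 scale, HEPACAM2 rose by 2.01 from 0.0857 CPM, and the other 4 did not pass. HEPACAM2, under the 0.191 CPM of the filter in the controls, was tested only through the EFNB2 libraries, where it was higher. ISG20, an exonuclease that degrades RNA, had 21.8, 25.9, 29.4, 26.1 and 26.3 CPM with the EFNB2 guide and 15.9, 14.1, 14.9, 12.4 and 12.6 CPM in the controls, 1.85-fold higher without overlap (log2 fold change 0.89, SE 0.08, edgeR adjusted p = 2.25e-07). ISG20 lies on chromosome 15, where 70.3% of 489 tested genes were higher with the EFNB2 guide and the median log2 fold change was 0.30. SP110, a nuclear body protein, rose by 0.25 (SE 0.04, edgeR adjusted p = 0.000212).

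Of the transcription factors that drive the programme, only IRF7 passed among the 4 on the list (STAT2, IRF1, IRF7 and IRF9). IRF7, which amplifies interferon production, stood at 17.0, 18.9, 20.4, 20.9 and 21.9 CPM with the EFNB2 guide and at 15.6, 15.2, 15.9, 14.0 and 16.9 CPM in the controls. The groups were separated by a narrow margin, EFNB2 A against control E, and the log2 fold change was 0.35 (SE 0.07, edgeR adjusted p = 0.000418). IRF9, the DNA-binding part of ISGF3, differed by 0.33 (SE 0.16, edgeR adjusted p = 0.109), with EFNB2 A (1.73 CPM) inside the control range (1.65 to 2.29 CPM). Without both A libraries the difference of IRF9 was 0.49 and passed (adjusted p = 0.00419). STAT2 differed by -0.06 (SE 0.03) and IRF1 by -0.05 (SE 0.04), and without both A libraries IRF1 passed at -0.08 (adjusted p = 0.0489).

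With all 10 libraries in the fit, the RNA sensors of the list missed the threshold. IFIH1 (the sensor MDA5) differed by -0.05 (SE 0.03), DHX58 (LGP2, which tunes it) by 0.15 (SE 0.06) and EIF2AK2 (the kinase PKR, which stops translation) by 0.04 (SE 0.04). Without both A libraries IFIH1 was lower (-0.09, edgeR adjusted p = 0.00918) and DHX58 higher (0.18, edgeR adjusted p = 0.00958). BST2 (tetherin), which holds budding viruses at the cell surface and was the strongest member per length, had 198 ± 2.67 CPM against 182 ± 17.0 CPM (SD, n = 5 each). Its difference of 0.12 (SE 0.05, edgeR adjusted p = 0.0683) did not pass, and control A, at 154 CPM, was the lowest library. BST2 passed in 6 of 19 alternatives, and without both A libraries at a smaller difference (0.06, adjusted p = 0.0309). The mitochondrial proteins IFI6 (0.19, SE 0.08) and IFI27 (0.16, SE 0.12) and the cytosolic IFI35 (0.04, SE 0.05) did not pass either, and IFI6 passed without both A libraries (0.18, adjusted p = 0.0151). A p that misses the threshold does not show that these levels were equal.

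**Figure D5:**
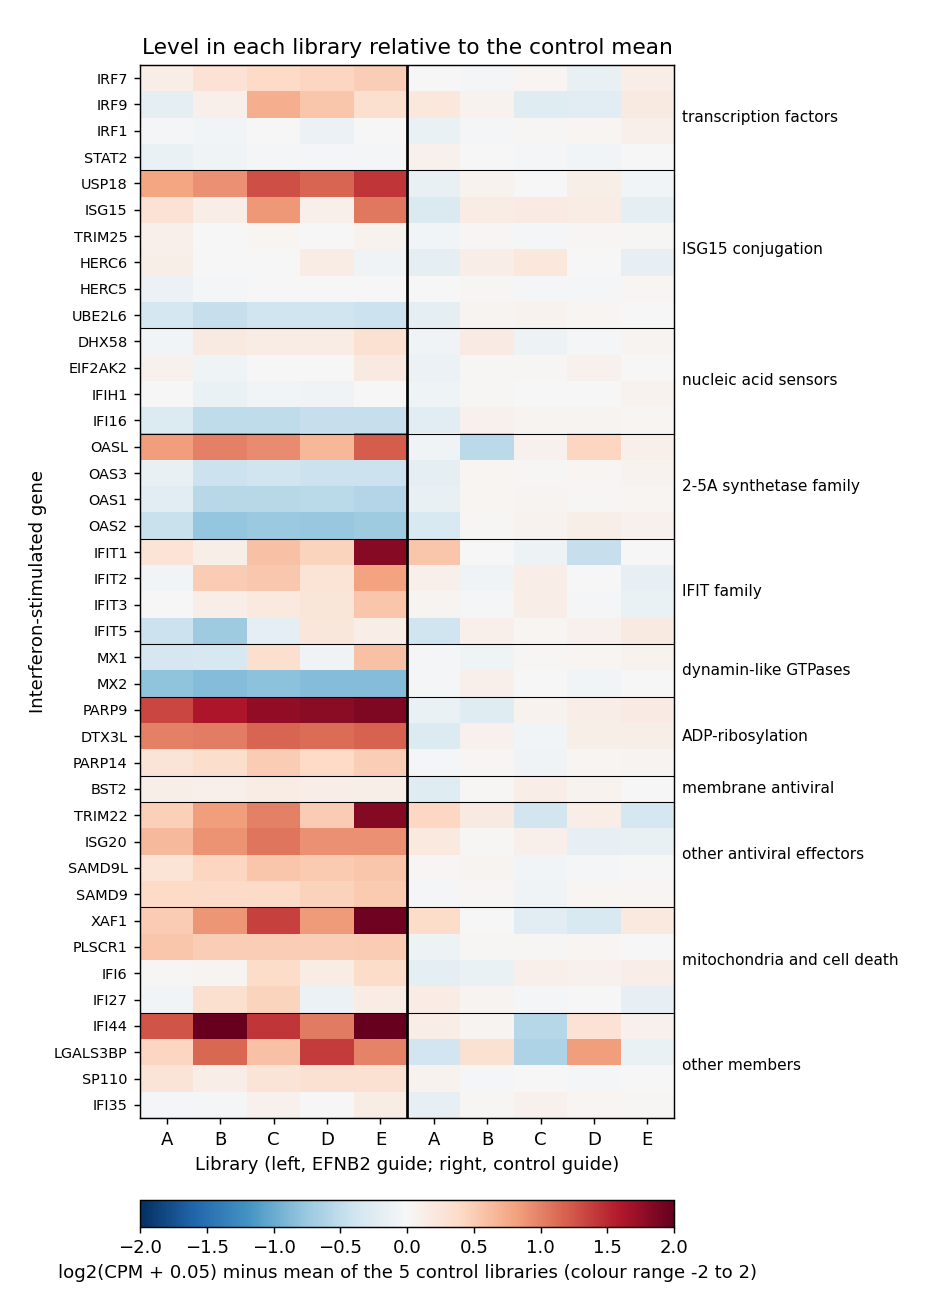
Level of the 40 tested members (y axis, grouped by role) in each library (x axis, EFNB2 guide left of the line, control guide right), as log2(CPM + 0.05) less the mean of the 5 control libraries, with red above and blue below it and the colours ending at -2 and 2. PARP9, DTX3L and USP18 are red in all 5 EFNB2 libraries, MX2 and OAS2 are blue in all 5, and the column of EFNB2 E is the deepest red for many weakly expressed members.

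The 10 members that were not tested had at most 116 counts over all libraries. Ratios of their summed counts, scaled for depth, carry exact 95% binomial intervals that cover counting error only and not the spread between libraries. IFI44L, the neighbour of IFI44, had 96 counts with the EFNB2 guide and 20 in the controls, a ratio of 5.11 (3.13 to 8.73), and lay at 0.184, 0.251, 0.397, 0.143 and 0.929 CPM against at most 0.107 CPM in a control library. CMPK2, a mitochondrial nucleotide kinase, had 73 and 21 counts, a ratio of 3.70 (2.25 to 6.33), with 0.672 CPM in EFNB2 E and 0.155 to 0.246 CPM in A to D. For these 2 genes and for GBP2 (19 and 5 counts, ratio 4.04, 1.46 to 13.9) every EFNB2 library was above every control. IFITM1, a protein that blocks fusion of viruses, had 59 and 15 counts (ratio 4.18, 2.34 to 7.94), and the guanylate-binding protein gene GBP1 had 36 and 8 (ratio 4.79, 2.19 to 11.9), and for both the libraries overlapped. IFITM3, of the same family as IFITM1, had 9 counts with the EFNB2 guide and 0 in the controls. Its ratio therefore has no finite value, and the lower end of its interval was 2.10.

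The other 4 showed no difference that these counts could resolve. GBP4 had 33 and 25 counts (ratio 1.40, 0.810 to 2.46), IFITM2 had 12 and 17 (0.751, 0.327 to 1.67) and RSAD2, the gene of viperin, had 15 and 16 (0.997, 0.459 to 2.15). Exons of IFITM2 share 351 bases with those of IFITM1 on the same strand, and exons of RSAD2 share 14 bases with CMPK2 on the opposite strand. EPSTI1 had 3 and 1 counts, for which no fold is given.

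Interferon genes themselves were hardly counted. Over 21 interferon genes there were 4 counts in the 5 libraries of the EFNB2 guide and 3 in the 5 control libraries, and 17 of the 21 had 0 counts in all 10 libraries. Over the lists that follow 129 genes were tested, and 32.6% rose and 27.1% fell. Of all tested genes 22.8% rose and 22.6% fell. Of 9 genes for interferon receptors and their kinases 2 rose and 1 fell. The kinase TYK2 rose from 366 ± 19.9 to 493 ± 14.0 CPM (SD, n = 5 each, with a log2 fold change of 0.43, SE 0.03, edgeR adjusted p = 8.49e-08), the type II receptor chain IFNGR1 rose by 0.18 (SE 0.04) and IFNGR2, its partner, fell by 0.23 (SE 0.05). Of 10 tested STAT and IRF genes outside the members, 4 rose and 3 fell. STAT4 rose by 0.25 (SE 0.03), while IRF2, which competes with IRF1, fell by 0.24 (SE 0.04).

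Among 20 tested genes of nucleic acid sensing and its adaptors, 6 rose and 3 fell. IKBKE, a kinase that activates IRF3 and IRF7, rose by 0.55 (SE 0.05, edgeR adjusted p = 5.80e-07), the RNA sensor DDX58 (RIG-I) rose by 0.36 (SE 0.11, edgeR adjusted p = 0.0122), and the ubiquitin ligase RNF135, which acts on RIG-I, fell by 0.55 (SE 0.08, edgeR adjusted p = 5.41e-05). Of 11 negative regulators 3 rose and 3 fell. SOCS3 rose by 0.52 (SE 0.14), and SOCS1, which inhibits the receptor kinases and is named here after its values were seen, rose by 1.41 (SE 0.22) from 0.269 CPM. PIAS1, an inhibitor of activated STAT proteins, rose by 0.33 (SE 0.03), and PIAS2 and PIAS3 fell by 0.16 (SE 0.04) and 0.12 (SE 0.04). Like ISG20, PIAS1 lies on chromosome 15, where 70.3% of tested genes were higher and the median log2 fold change was 0.30.

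A further 61 tested interferon-stimulated genes outside the members were split almost evenly, with 18 higher, 19 lower and a median log2 fold change of 0.01. The cytidine deaminase genes APOBEC3F and APOBEC3C fell by 1.05 (SE 0.05, edgeR adjusted p = 1.23e-10) and 0.55 (SE 0.04, edgeR adjusted p = 1.85e-08). CASP1, the inflammasome protease, fell by 0.57 (SE 0.10), and APOL3 and TRIM14 rose by 0.49 (SE 0.07) and 0.42 (SE 0.03). Of 18 antigen processing genes that interferon induces, 9 rose and 6 fell. The peptide transporter gene TAP1 rose by 0.58 (SE 0.04, edgeR adjusted p = 9.55e-09), B2M rose by 0.48 (SE 0.06) and HLA-F by 0.74 (SE 0.07), whereas HLA-E fell by 0.21 (SE 0.03). B2M also lies on chromosome 15, where the median log2 fold change of tested genes was 0.30.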

How the data were processed

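The authors deposited a table of raw counts and one of normalized signal. The raw count of reads per gene gave every main result, and the normalized signal per gene was an alternative only. Per the labels' protocols, polyA RNA was selected for strand-specific libraries with paired reads. The submitters' processing notes list STAR 2.27a, GRCh38, DESeq2 and Partek without a role; the annotation and strand setting used in counting are not given in these sources. Table lines named by a number alone (3) name no gene and were left out; they held at most 7.00e-05% of a library's counts.

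Genes passing filterByExpr of edgeR 4.0.16 (R 4.3.3) were scaled by TMM and tested by glmQLFit and glmQLFTest on guide alone, with p-values adjusted by Benjamini-Hochberg over all 17834 tested genes (threshold 0.05). The standard error is the absolute log2 fold change over the square root of F. CPM use the TMM-scaled library, log2 CPM a prior count of 2. Exon lengths and exon overlaps are from GENCODE 29, gene positions and promoter windows from RefSeq. The steps were tested on simulated data.

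The genes named are all members, EFNB2, up to 3 rises and 3 falls past the threshold in each pathway list (mean log2 CPM of at least 1), of which a choice is printed and some are not reported here, and the 3 nearest tested genes on each side of members that lie together. SOCS1 and the stretches of PARP14, IFI44, ISG20, SAMD9, PLSCR1 and OAS3 were chosen after their values were seen. The members and lists were chosen with earlier results of these data known. Alternatives were RLE scaling, library totals alone, DESeq2 1.42.0, limma-voom (limma 3.58.1), no filter, at least 1 CPM in 5 libraries, the replicate letter as a block, no A libraries, the deposited signal as log2(value + 1) with limma, and leaving out each library.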

Additional observations from a re-analysis of the deposited data

Results flagged for a closer look

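In each guide's 5 libraries, a member was marked when its highest or lowest library lay far from the other 4 on the log2 CPM scale (Dixon's test at its 95% critical value). Of 80 groups examined 16 were marked, and chance marks about 1 in 20 groups. Of the 16, 9 were control A and 5 were EFNB2 A.

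Among the members that fell, both A libraries stood out for 4. OAS1 lay at 525 CPM in EFNB2 A (others 407 to 420) and at 551 CPM in control A (others 619 to 633). OAS2 lay at 324 CPM in EFNB2 A (others 258 to 267) and at 354 CPM in control A (others 447 to 476). OAS3 lay at 951 CPM in EFNB2 A (others 780 to 797) and at 932 CPM in control A (others 1074 to 1110). IFI16 lay at 69.9 CPM in EFNB2 A (others 59.5 to 61.9) and at 72.7 CPM in control A (others 87.4 to 89.7). UBE2L6 was low in control A alone, at 109 CPM (others 124 to 129).

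PLSCR1, which rose, was high in EFNB2 A (81.6 CPM, others 78.0 to 78.8) and low in control A (51.9 CPM, others 55.8 to 57.5). Control A was also low for IFI35 (45.1 CPM, others 51.5 to 53.9) and IFIT5 (1.30 CPM, others 1.77 to 1.97) and high for SP110 (13.0 CPM, others 12.2 to 12.4). IFIT1 was high in EFNB2 E, at 2.51 CPM (others 0.734 to 1.05). IFI44 was low in control C, at 0.107 CPM (others 0.194 to 0.239), a value of few counts.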

How the results depend on the processing

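Over 19 alternatives 20 of the 24 called members kept their call wherever they were tested, PARP9, DTX3L, USP18, MX2, OAS1, OAS2 and OAS3 among them. IFIT3, ISG15, IFIT2 and LGALS3BP lost theirs in 7, 4, 3 and 4 alternatives. Between 15 and 26 members (26 with no filter, which tests all 50) rose and 6 to 8 fell, with 15 to 22 and 6 to 7 when single libraries were left out. With the replicate block 16 rose and 6 fell, and ISG15 (adjusted p = 0.0550), IFIT2 (0.0559) and IFIT3 (0.0768) did not pass. Libraries with the same letter did not deviate together (correlations of -0.24 for A and -0.085 to -0.0030 for B to E). The main test therefore did not pair them, though such correlations cannot show whether they were prepared together. Members that did not pass changed sign as follows. Without both A libraries HERC6 was at -0.0309 and EIF2AK2 at -0.00346. With single libraries left out the log2 fold change of HERC6 ranged from -0.0121 to 0.0914, that of MX1 from -0.0771 to 0.167 and that of IFI35 from -0.00601 to 0.0597. The causes were not tested. Of the 16 members that did not pass, 7 passed in 0 alternatives. Members that did not reach 0.191 CPM in 5 libraries were too weakly counted to test.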
